A study of Mus musculus with 6 samples.

Results

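The Phf11 genes with Setdb2 and the Sp100 family of the mouse were followed across 2 macrophage-derived cell lines. The members are 8 genes, of which Phf11a, Phf11b, Phf11c, Phf11d and Setdb2 form the first set of 5 genes on chromosome 14, and Sp100, Sp110 and Sp140 the second set of 3 genes on chromosome 1. They were chosen by their names and places in the genome after several of them had been seen to differ between the lines on these same arrays, so their differences are given as descriptions. A member's features are the array's probe sets whose annotation names it, and where a gene had several, its brightest feature on average over all arrays was taken. Of the 8 genes, 7 had a feature, and Phf11b had none and was not analysed here. A total of 15 of the 35545 features named a member, 6 of them alone and 9 together with other genes.

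The study compared H10, a line that forms osteoclasts, with C8, a line that does not. Osteoclasts are the multinucleated cells that resorb bone, and they arise by fusion of macrophage precursors under the cytokine RANKL. Both lines descend from RAW264.7, a mouse macrophage-like cell line, and both carry the actin reporter Lifeact-mEGFP and a puromycin resistance gene. Each was grown from limiting dilution, so that H10 and C8 are 1 clone each, and a difference between clones and a difference tied to fusion cannot be told apart. All samples of both lines received RANKL at 60 ng/ml for 2 days, and there was no sample without RANKL. RNA from 3 samples of each line was hybridised to the Affymetrix Mouse Gene 1.0 ST array, 1 array per sample. The labels do not say that the 3 samples of a line came from separate cultures, so the p-values measure only the spread between arrays, which may be technical.

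All values are log2 expression values, so that a difference of 1 is a doubling of signal, and levels are compared across arrays feature by feature. The median of an array or of the whole table serves only as a rough mark of dim features, since probes differ in brightness. The medians of the 6 arrays lay between 7.65 and 7.74. Of 8 macrophage markers, 7 lay above the median of the whole table. So did none of the 2 measured B cell markers, none of 3 neutrophil markers, 1 of 3 T cell markers, 1 of 3 dendritic cell markers and 2 of 3 fibroblast markers. The lines differed in osteoclast markers along with the members, since 5 of 8 osteoclast markers were called higher in H10, against 1.36% of all features. The mean over this list was 10.57 to 10.76 in H10 and 9.31 to 9.61 in C8. Of the 5, Ctsk, Oscar, Ocstamp and Dcstamp are also named by the study from these arrays and are not independent evidence. Mmp9 went the other way without passing (log2 fold change -0.34, adjusted p 0.534). In addition, 1 macrophage marker, Adgre1, was called higher in H10 (log2 fold change 2.02, adjusted p 0.00114). The part of these markers in the members' values was not tested. The first principal component, with 41.9% of the variance, separated the lines, and the second, with 22.2%, separated replicate 1 of both lines from the other arrays. Tests used limma across all features with Benjamini-Hochberg adjustment, and a feature was called at an adjusted p under 0.05. With 3 arrays against 3, an exact permutation test of a single value cannot go below p = 0.1.

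Sp100 is the founding member of a family of nuclear proteins that carry a SAND domain and, in several members, a PHD finger and a bromodomain, modules that bind DNA or modified histones. It is a main component of PML nuclear bodies, the nuclear dots that grow and recruit more protein in cells exposed to interferon. Sp110 and Sp140 are its relatives in the same gene cluster, expressed largely in leukocytes, and in the mouse this stretch of chromosome 1 holds many near-identical gene copies. PHF11 proteins are small PHD finger proteins of blood cells, linked in B and T cells to transcription through NF-kB, and Setdb2, their neighbour, belongs to a family of histone H3 lysine 9 methyltransferases and is known as interferon-induced in macrophages.

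Phf11d and Sp100 were the members with the widest separation between the lines, followed by Phf11a, while Phf11c, Setdb2 and Sp110 lay slightly higher in H10 and Sp140 did not separate. Of the 7 measured members, 3 passed the test, Phf11d, Sp100 and Setdb2, all higher in H10. The other 4, Phf11a, Phf11c, Sp110 and Sp140, did not pass, and no member passed as lower. At an unadjusted p under 0.05 the limma fit gave 6 members higher and 0 lower, against 5.63% of all features higher and 6.24% lower. Over the whole table, 484 features, or 1.36%, were called higher in H10 and 269, or 0.757%, lower. In 6 of the 7 members, all but Sp140, every H10 array lay above every C8 array, against 6.96% of all features. These members were selected on this contrast, so nothing is read from the excess over the background. The median log2 fold change, H10 minus C8, was 0.41 over the members and -0.02 over all features.

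**Figure D1:**
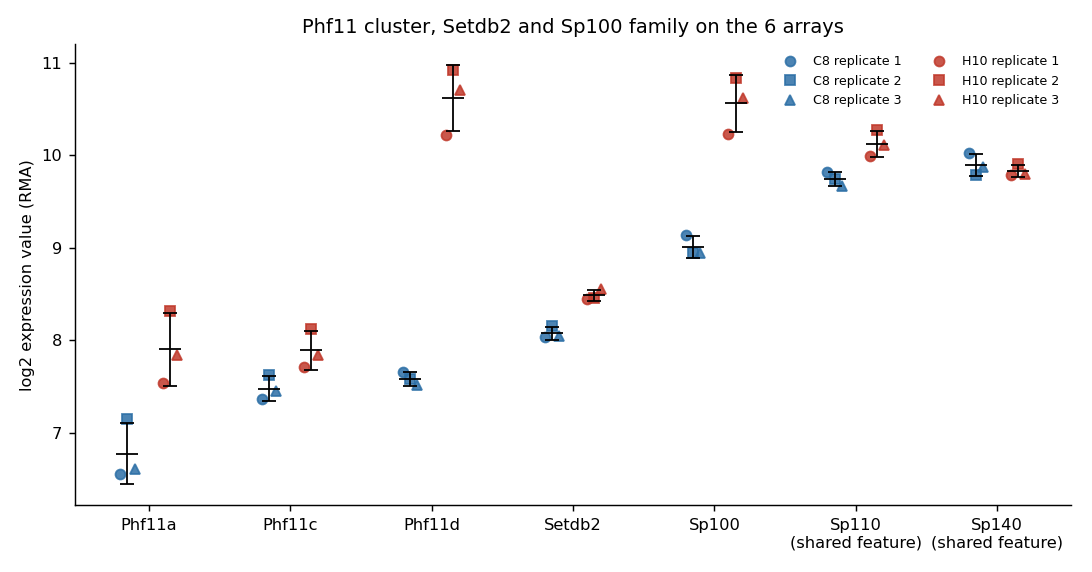
Log2 expression value of the 7 measured members on each of the 6 arrays. Points are arrays (C8 blue, H10 red, with the shape giving the replicate number), and black bars show the mean and SD of 3 arrays. The lines are furthest apart for Phf11d, with H10 from 10.22 to 10.92 and C8 from 7.51 to 7.66, and overlap for Sp140.

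Phf11d, a PHD finger gene in the middle of the cluster, was the member with the highest fold change. Its feature (10420488), which names no other gene, read 10.22, 10.92 and 10.71 in H10 and 7.66, 7.58 and 7.51 in C8. All H10 arrays lay far above all C8 arrays, with replicate 1 the lowest of H10. The means were 10.62 ± 0.36 in H10 and 7.58 ± 0.08 in C8 (SD, n = 3 each). The log2 fold change was 3.03 (SE 0.17, 95% confidence interval 2.62 to 3.45), which is 8.19-fold, with an adjusted p of 0.00111. Ordered by fold change, this was number 14 of all 35545 features. Its C8 mean lay below the median of each C8 array, and background was not measured, so the fold of a gene this dim in C8 is uncertain in size.

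Phf11a, at the edge of the cluster, differed in the same direction with more spread. Its feature (10420483) read 7.54, 8.32 and 7.84 in H10 and 6.55, 7.15 and 6.61 in C8. The lines did not overlap, but replicate 2 was highest in both and the arrays of a line spread widely. The means were 7.90 ± 0.39 and 6.77 ± 0.33 (SD, n = 3), the log2 fold change was 1.13 (SE 0.24, 95% interval 0.56 to 1.70), and the adjusted p was 0.0821, so Phf11a did not pass. All C8 values of Phf11a were under the array medians, so the size of its fold is uncertain as well. The intervals of the fold changes of Phf11a and Phf11d did not overlap, although the difference between them was not tested.

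Phf11c and Setdb2 lie side by side at the other edge, and both had small differences. Phf11c (feature 10420497) read 7.71, 8.12 and 7.84 in H10 and 7.36, 7.62 and 7.45 in C8. Its lowest H10 value was just above its highest C8 value. The log2 fold change was 0.41 (SE 0.12, 95% interval 0.12 to 0.71), with an adjusted p of 0.223. Setdb2 (feature 10420503), the methyltransferase gene, read 8.44, 8.46 and 8.55 in H10 and 8.03, 8.15 and 8.04 in C8. Its arrays lay close together within each line, and the lines were separate. The log2 fold change was likewise 0.41, but with a smaller SE of 0.07 (95% interval 0.25 to 0.57) and an adjusted p of 0.0354. This call did not hold when any single array of the 6 was left out, with adjusted p between 0.0743 and 0.171, while the difference kept its direction. The annotation ties the Phf11c and Setdb2 features to each other, since they share 2 transcript accessions, and RefSeq lists a read-through gene, Gm45935, that joins Setdb2 and Phf11c. Signal of a joined transcript would enter both values, and its share was not measured.

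**Figure D2:**
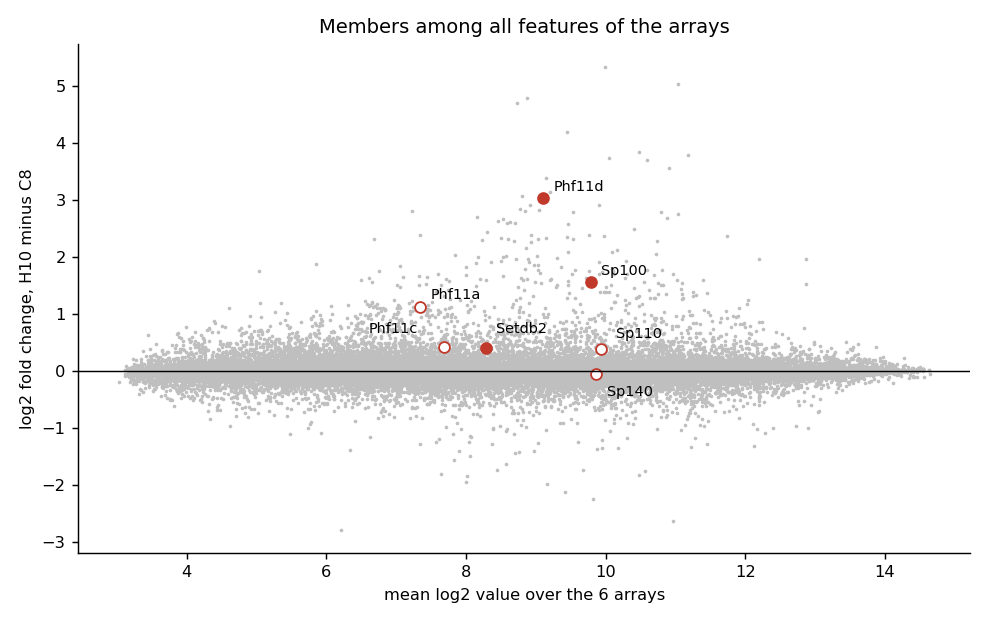
Log2 fold change, H10 minus C8, against the mean log2 value over the 6 arrays for all 35545 features (grey). Members are circled in red, filled where the adjusted p was under 0.05; Phf11d at 3.03 and Sp100 at 1.55 stand above the bulk of features, and Sp140 lies at -0.06.

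The start regions of the Phf11 genes and Setdb2 were compared and searched for pairs of GAAA elements. Phf11a and Phf11b held a pair at the planned spacing, and Phf11d held only a closer spacing that was added later. Pairs of GAAA spaced as GAAANNGAAA, where N is any base, are the core of the interferon-stimulated response element (ISRE). This DNA element is bound by interferon regulatory factors and by the factor that type I interferon activates. The search used RefSeq windows of GRCm38.p6 that run from 250 bases before to 50 bases after each annotated start, read on both strands. The letters GAAANNGAAA occurred in 3.44% of all 32851 windows. The closely spaced variant GAAANGAAA, which lacks that spacing and was added after the sequences had been read, occurred in 3.17%. No window of a member held both. In Phf11a (chr14:59297532-59297561, minus strand) the first motif begins 29 bases before the start, and in Phf11b (chr14:59341361-59341390, minus strand) 50 bases before it. In Phf11d (chr14:59365476-59365505, minus strand) the closely spaced variant begins 4 bases before the start and runs across it. Each is printed 5′ to 3′ along the gene, as 30 bases, with the match in capitals.
Phf11a: cacatttagaGAAAAAGAAActagaaccta
Phf11b: cacatttagaGAAAAAGAAActagaaacta
Phf11d: gcacatttcggGAAACGAAActaggagcta
The Phf11a and Phf11b sites are the same at 29 of 30 positions, and GAAACTAG is the longest run that all 3 sites share. Over the whole window of 300 bases, Phf11a and Phf11b were 85.4% identical, Phf11a and Phf11d 56.5%, and Phf11a and Phf11c 46.0%. Windows of the Phf11 set against windows of the Sp set were 42.6% to 49.3% identical, so the value for Phf11a and Phf11c is within the range between the sets. Phf11c and Setdb2 held neither motif in their windows. GAAANNGAAA was in no window of Phf11d, Sp100 or Setdb2, the members that passed the test. A match is a run of letters and not a measured binding site, and its absence speaks only of these windows. The 85.4% identity at the start belongs to the gene pair of which only Phf11a had a feature. Whether Phf11b transcripts add to the signal of that feature was not tested.

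Sp100, the nuclear body component, was the other member with a wide separation. Its feature that names it alone (10347948) read 10.23, 10.83 and 10.62 in H10 and 9.14, 8.94 and 8.94 in C8. All H10 arrays lay above all C8 arrays, again with replicate 1 the lowest of H10. The means were 10.56 ± 0.30 and 9.01 ± 0.12 (SD, n = 3), the log2 fold change was 1.55 (SE 0.16, 95% interval 1.18 to 1.93), or 2.93-fold, and the adjusted p was 0.00646. A second feature (10356262), shared with 4 gene models of the same region, read 9.82, 10.26 and 10.08 in H10 and 8.64, 8.42 and 8.60 in C8. Its log2 fold change was 1.50, with an adjusted p of 0.00334, so both features gave nearly the same value. The features are not independent, since all 7 transcript accessions of the first are also listed for the second.

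Sp110, a relative of Sp100, had no feature of its own, and its 6 features disagreed. The feature with the highest mean (10356278), which names 6 genes, read 9.99, 10.27 and 10.11 in H10 and 9.82, 9.74 and 9.67 in C8. The lines did not overlap, though H10 replicate 1 came close to C8 replicate 1. The log2 fold change was 0.38 (SE 0.09, 95% interval 0.17 to 0.59), with an adjusted p of 0.116, which fell to 0.0470 when dim features were left out before adjustment and ranged from 0.0470 to 0.329 over all alternatives. A pair of features with identical values on all arrays, which name Sp110 and Gm15753, read 9.38, 9.78 and 9.45 in H10 and 8.96, 8.81 and 8.77 in C8. Their log2 fold change was 0.69 (SE 0.12), with an adjusted p of 0.0433, and they count as 1 measurement. This call was lost when any single array was left out (adjusted p 0.0606 to 0.157) and with each array centred on its median (adjusted p 0.0671). A feature naming 3 genes gave 0.60 (adjusted p 0.0673), one naming 5 genes gave -0.08 (adjusted p 0.764), and one naming 9 genes, Sp140 among them, gave -0.06 (adjusted p 0.874). The features that name the fewest genes thus had the higher fold changes, and no value can be given to Sp110 alone.

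Sp140, a chromatin reader of leukocytes, did not differ beyond its spread on any of its 4 features. The feature with the highest mean (10356248), shared by 9 genes, read 9.79, 9.90 and 9.80 in H10 and 10.02, 9.79 and 9.87 in C8, and the lines overlapped. The log2 fold change was -0.06 (SE 0.08, 95% interval -0.25 to 0.13). The feature naming Sp140 alone (10582862) read 8.62, 8.79 and 8.84 in H10 and 8.91, 8.51 and 8.59 in C8. Here the lines overlapped as well, and the log2 fold change was 0.08 (95% interval -0.21 to 0.37, adjusted p 0.900). These intervals leave room for a small difference in either direction, and both end below the interval of Sp100 (1.18 to 1.93). They measure only the spread between arrays, and the feature shared by 9 genes does not measure Sp140 alone. The remaining features gave 0.04 (adjusted p 0.935) and -0.10 (adjusted p 0.868).

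Csprs, whose name stands for component of Sp100-rs, shares gene models with the second Sp100 feature and was looked at after its values had been seen. It is named by 4 features, each with 4 other gene models, and all 4 were called higher in H10. The 4 features share 9 transcript accessions in each pair, so they are not independent measurements. They also share accessions with the second Sp100 feature, and no value can be given to Csprs alone. The feature with the lowest adjusted p (10356274) read 8.10, 8.18 and 8.06 in H10 and 6.90 on each C8 array, a log2 fold change of 1.21 with an adjusted p of 0.00059. The one with the highest fold change (10347915) read 8.07, 8.69 and 8.60 in H10 and 7.07, 6.59 and 6.59 in C8, a log2 fold change of 1.70 with an adjusted p of 0.0115. The others gave 1.66 (10347925) and 1.31, and no H10 array overlapped a C8 array on any of the 4. The C8 means of all 4 were under the array medians. Without C8 replicate 2, C8 replicate 3 or H10 replicate 3, the calls of 10347915 (adjusted p 0.0601 to 0.0624) and 10347925 (adjusted p 0.0631 to 0.07) were lost, while the other 2 were kept. A530032D15Rik is named by all Sp140 features except the one naming Sp140 alone. On its own 2 features it gave -0.37 (adjusted p 0.411) and -0.02 (adjusted p 0.973). On the first of these every H10 array lay below every C8 array.

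**Figure D3:**
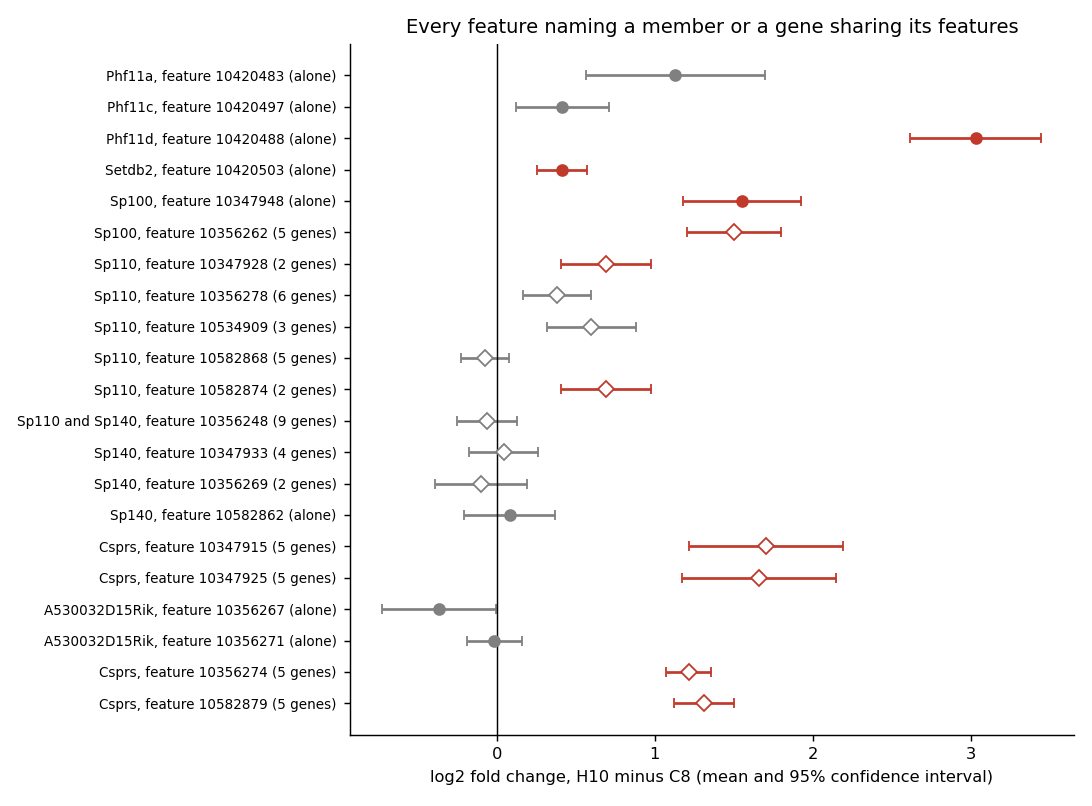
Log2 fold change, H10 minus C8, with its 95% confidence interval, for the 15 features naming a member and 6 features naming a gene that shares one. Circles are features naming 1 gene and open diamonds features naming several, with red for an adjusted p under 0.05; Sp100 and Csprs features lie between 1.21 and 1.70, Sp110 features between -0.08 and 0.69, and Sp140 features near 0.

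The Sp starts were searched in the same way. Sp100 and 1 of the 2 annotated starts of Sp110 hold the closely spaced variant on the strand opposite to the gene, where GAAANGAAA appears as its reverse complement. In Sp100 (chr1:85649937-85649966, plus strand) it begins 40 bases before one annotated start and 66 before the other. In Sp110 (chr1:85598776-85598805, minus strand) it begins 17 bases after the start. The sites are printed 5′ to 3′ along the gene, with the match in capitals.
Sp100: ttactttcgttTTTCTTTTCcccatcaggg
Sp110: tcactttcattTTTCTTTTCttgaagcctg
They are the same at 20 of 30 positions, with TTTTTCTTTTC as the longest shared run. Sp140 and the other Sp110 start held neither motif, and TTCNNNGAA, the element bound by STAT dimers after interferon-gamma, which occurred in 8.30% of all windows, was in no window of any member.

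None of the named protein-coding genes that flank the members in the RefSeq order was called. Of all features, 1.36% were called higher and 0.757% lower, so that no call among these few genes lies near those shares. Csprs is not among them in that order, and gene models without a name of their own were left out. The 5 nearest named protein-coding genes on either side of the Phf11 cluster, 10 in all and all measured, had log2 fold changes from -0.27 to 0.05 with a median of -0.03. At an unadjusted p under 0.05 limma gave 0 of them higher and 1 lower, against 5.63% of all features higher and 6.24% lower. Among the immediate neighbours, Rcbtb1, next to Phf11a, gave -0.03 and Cab39l, next to Setdb2, gave -0.04. The 10 genes around the Sp cluster ranged from -0.52 to 0.15 with a median of -0.10. Of these, 0 were higher and 3 lower at an unadjusted p under 0.05 in limma, beside the same shares of all features. Slc16a14 beside Sp110 gave -0.17 and Cab39 beside Sp100 gave 0.04.

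**Figure D4:**
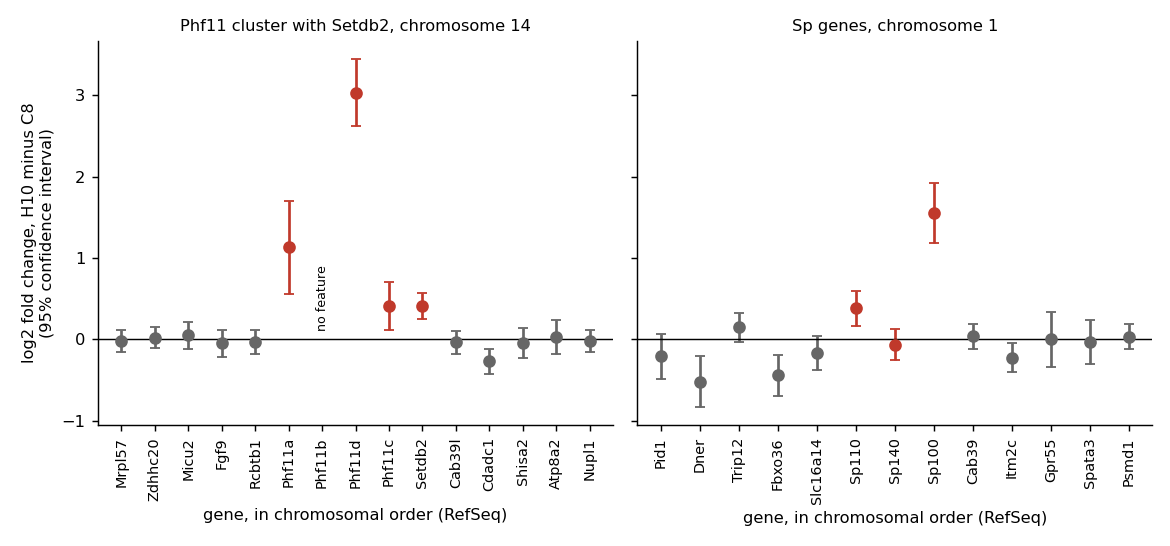
Log2 fold change, H10 minus C8, with its 95% confidence interval, for the members (red) and 5 protein-coding genes on each side (grey), in chromosomal order and not to scale. The flanking genes lie between -0.27 and 0.05 around the Phf11 cluster and between -0.52 and 0.15 around the Sp genes, while Phf11d reached 3.03 and Sp100 1.55.

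Genes with roles close to those of the members were taken as lists. Among 20 measured genes of PML nuclear bodies, 1 was called higher, 0 were called lower and 19 did not pass, with a median log2 fold change of 0.04. The one was Isg20, an interferon-induced exonuclease found in nuclear bodies, which read 10.52, 11.45 and 10.89 in H10 and 8.95, 8.29 and 8.45 in C8, a log2 fold change of 2.39 (SE 0.27) with an adjusted p of 0.0093. The lines did not overlap for it, but the call was lost without C8 replicate 3 (adjusted p 0.0552) and without H10 replicate 3 (adjusted p 0.0502). Pml, the scaffold of the bodies, differed by 0.45 on the log2 scale (adjusted p 0.211), and Daxx, a histone chaperone recruited there, 0.14 (adjusted p 0.530). In this list 3 genes were higher and 4 lower at an unadjusted p under 0.05. Sp100 itself, with its 1.55, was not counted in the list.

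Neither relatives by domain nor relatives by enzyme activity of the members were called. All 13 genes of the list of SAND domain and PHD-bromodomain proteins did not pass, with a median of -0.06, and limma gave 0 higher and 1 lower at an unadjusted p under 0.05. Aire, the SAND and PHD finger protein of thymic tolerance, gave -0.06 (adjusted p 0.828), and Deaf1, a SAND domain transcription factor, 0.01 (adjusted p 0.977). Of 16 measured genes that write, read or erase methylation of histone H3 lysine 9, the mark Setdb2 is assigned to, 0 were called, with a median of -0.09 and 1 higher and 3 lower at an unadjusted p under 0.05. Setdb1, a relative of Setdb2, gave 0.03 (adjusted p 0.944), and the methyltransferase gene Suv39h2 gave -0.29 (adjusted p 0.205). The list of other numbered PHD finger genes held 21 genes, with Jade1, Jade2, Jade3 and G2e3 among them. It ranged from -0.46 for Phf2, a histone demethylase (adjusted p 0.116), to 0.17 for Jade3, with Phf1 at 0.03. None of the 21 was called in the main fit, and from 0 to 3 were called lower over the alternatives. Closest to the threshold was Phf21a, at -0.32 (adjusted p 0.0555). At an unadjusted p under 0.05 limma gave 0 higher and 6 lower, against 5.63% of all features higher and 6.24% lower.

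Interferon signalling was listed because Sp100 and Setdb2 are known interferon-induced genes. Of 16 measured genes, 4 were called higher, 0 lower and 12 did not pass, with a median of 0.08. At an unadjusted p under 0.05, limma gave 5 higher and 1 lower. The lower one, named after its values were seen, was Irf8, a factor of macrophage development, which read 8.59, 8.84 and 8.76 in H10 and 9.41, 9.05 and 9.28 in C8. The lines did not overlap, and its log2 fold change was -0.52 with an adjusted p of 0.0943, which was 0.0366 with dim features left out and at most 0.268 over the alternatives. Irf7, the factor that amplifies type I interferon, was higher by 3.71 on the log2 scale (adjusted p 0.000639) and Usp18, which restrains the interferon receptor, 3.79 (adjusted p 0.00119). These 2 genes are also named by the study from these arrays and are not independent evidence. Irf9, the DNA-binding part of the factor ISGF3, gave 1.06 (adjusted p 0.00405) and Irf1, a factor that binds the ISRE, 0.78 (adjusted p 0.019). The call of Irf1 held with C8 replicate 1 left out but not with any of the other 5 arrays left out (adjusted p 0.0585 to 0.0961). The receptor chains Ifnar1 and Ifnar2 gave 0.07 (adjusted p 0.834) and -0.01 (adjusted p 0.979).

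Most members had the same order of the arrays within H10, and this order was not particular to them. Replicate 1 was the lowest H10 array for all 7 members, as it was for 31.8% of all features and 55.8% of features called higher. Replicate 2 was the highest for 6 of the 7, with Setdb2 highest on replicate 3, against 26.8% of all features. The share for replicate 2 among features called higher was not computed. Irf7, Usp18, Irf9 and Isg20 also had replicate 1 lowest and replicate 2 highest in H10, while Irf1 did not. The feature naming Sp140 alone was highest on replicate 3. Replicate 1 of both lines is the array that stood apart on the second principal component, and its part in these values was not tested. With both arrays numbered 1 left out, Phf11d and Sp100 were still called higher and Setdb2 was not, at an adjusted p of 0.128.

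The genes closest to Phf11d and to Sp100 in their values were found over all genes with a feature of their own. Closeness was the root mean square difference between the log2 values on the 6 arrays, each gene first centred on its own mean. Closest to Phf11d were Ifi27l2a at 0.107, Irgm1 at 0.131, Epsti1 at 0.141 and H2-T24 at 0.174, with log2 fold changes of 3.08, 2.78, 2.81 and 2.80. Closest to Sp100 were Rnf213 and Mov10, both at 0.083, Lhfpl2 at 0.0895 and Casp4 at 0.0919, with log2 fold changes of 1.59, 1.56, 1.57 and 1.47. With 3 arrays a line, such closeness rests mainly on the shared difference between the lines.

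**Figure D5:**
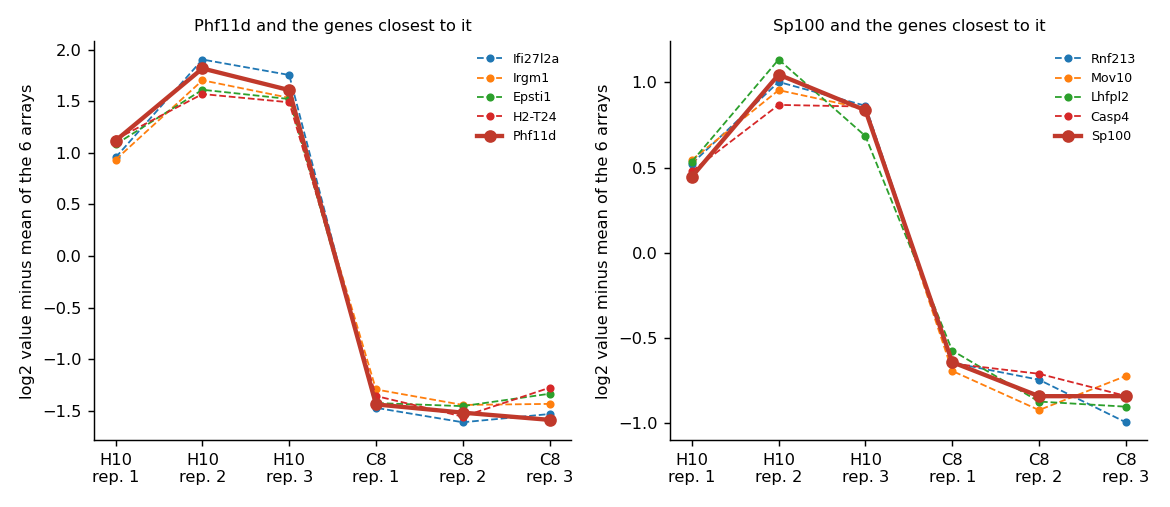
Log2 value on each array minus the gene's mean over the 6 arrays, for Phf11d (left, red) and Sp100 (right, red) with the 4 genes closest to each (dashed). The H10 arrays form the upper level and the C8 arrays the lower, and H10 replicate 1 is the lowest H10 array for Phf11d and Sp100.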

How the data were processed

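The deposited table holds RMA log2 expression values of 35545 features on 6 arrays (3 of H10, 3 of C8), which the authors made with Affymetrix Expression Console (version not given in the sources used here). RMA subtracts background, sets equal distributions and summarises probes, so background could not be read back and the values run from 2.91 to 14.7. No array was left out. Arrays were grouped by their labels. Gene names came from the platform annotation: 21781 features name 1 gene, 1621 several and 12143 none, and 21690 were matched to RefSeq by gene number.

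The values were fitted as deposited with limma 3.58.1 in R 4.3.3 (lmFit and eBayes, H10 minus C8, no covariate, 4 residual and 2.57 prior degrees of freedom), with p-values adjusted over all features. The fit was tested on simulated data. The number of arrays limits the precision. Members and gene lists were chosen with earlier results of these data known, and named genes are the members, list genes that passed, stated list members the 4 genes closest to Phf11d and Sp100, and Csprs, A530032D15Rik and immediate neighbours by place. Alternatives were each array left out, both arrays numbered 1 left out, a replicate block, quantile or median scaling, a trended variance, a filter on dim features, 1 feature per gene, features naming 1 gene and a threshold of 0.01. Motifs were counted in RefSeq promoter windows of GRCm38.p6 with Python 3.11.15. Protein sequences were not analysed here.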

Additional observations from a re-analysis of the deposited data

How the results depend on the processing

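The count of members called higher, 3, was 2 with any single array or both arrays numbered 1 left out, and at a threshold of 0.01. It was 4 with dim features left out, where Sp110 was added (adjusted p 0.0470) and Phf11a was removed by the filter. No member was called lower under any setting. Phf11d and Sp100 were called under every alternative at 0.05, with adjusted p from 0.000525 to 0.0115 and from 0.00161 to 0.0433. The range of Phf11d leaves out the filter on dim features (adjusted p 0.000204). Phf11d passed that filter only through its H10 arrays, so that value is no support. Sp140 turned from -0.06 to 0.02 without both arrays numbered 1 and to 0.08 with features naming 1 gene or their mean; the feature differs in the latter. Over all features, 484 higher and 269 lower became 183 to 448 and 53 to 166 with 1 array left out, 201 and 67 at 0.01, 115 lower without both arrays numbered 1, and 521 lower without dim features. In a fit with a replicate block, 290 were higher and 98 lower, Phf11a was called (adjusted p 0.0173) and Setdb2 was not (0.118). Same-numbered arrays deviated with correlations of 0.17, -0.0043 and -0.12, so the numbers were not taken as pairs. Over the alternatives, 0 to 2 nuclear body genes were higher and 0 to 1 lower, 3 to 5 interferon signalling genes higher and 0 to 1 lower, and 0 to 3 PHD finger genes lower. Searching only bases before the start gave GAAANNGAAA in 2.98% of windows, TTCNNNGAA in 7.02% and, chosen after seeing the data, GAAANGAAA in 2.68%. The causes of these shifts were not tested. Signal over background was not analysed here, which limits what can be said of features under the array medians.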
